A study of Homo sapiens with 6 samples.

Results

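NRSN2, TRIB3, RBCK1, CSNK2A1, MAVS, PANK2, RNF24 and SMOX are 8 genes of chromosome 20p, the short arm of human chromosome 20. They were chosen because they form a pair of runs of 4 neighbouring measured genes, each called lower in U87MG than in T98G. The choice rested on that same difference, so their own differences are given as a description and without a test. All 15 probe sets whose platform symbol is one of the 8 names were taken, of 19064 probe sets with 1 listed gene, and the 8 genes are set among 11963 measured genes. RNA came from U87MG and T98G, both established human glioblastoma lines, on 3 Affymetrix arrays per line, with no treatment named in the labels. By the labels, U87MG cells resist the apoptosis that bortezomib, a proteasome inhibitor, and G5, an inhibitor of ubiquitin isopeptidases, bring about, yet die by necrosis under G5. The labels give T98G the opposite character, sensitive to apoptosis under either inhibitor and partly shielded from the necrosis. Each line stands for a single tumour, both were grown in DMEM with fetal bovine serum, and the labels do not say whether the arrays came from separate cultures. Every p-value therefore measures only the spread between these arrays, which may be technical. Values are log2 expression per probe set, and differences are U87MG minus T98G.

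The 8 genes are neighbours whose products are known for separate tasks. In the distal run, NRSN2 encodes neurensin-2, a membrane protein of neuronal vesicles, TRIB3 a pseudokinase induced in endoplasmic reticulum stress, RBCK1 the HOIL-1 subunit of the linear ubiquitin ligase, and CSNK2A1 the catalytic alpha subunit of the kinase CK2. In the more proximal run, MAVS encodes the mitochondrial adaptor of the RNA sensors RIG-I and MDA5, PANK2 the mitochondrial kinase that begins coenzyme A synthesis, RNF24 a RING finger membrane protein, and SMOX the oxidase that turns spermine into spermidine. RNA alone was analysed here, not DNA.

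Promoter windows show that the neighbours do not share a strand or a single base composition. RefSeq windows of build GRCh38.p14, from 250 bases before to 50 bases after the start of transcription, were matched by symbol for 7 of the 8 genes, SMOX having no entry, with the window listed first taken for each gene. Of the 7, 5 are on the plus strand and 2, CSNK2A1 and RNF24, on the minus strand. GC content ran from 55.3% in CSNK2A1 to 77.0% in TRIB3 and RNF24, against a median of 58.3% over 27305 windows. The windows held 15 CpG dinucleotides in CSNK2A1 to 38 in TRIB3 and RNF24, against a median of 14. Of 8 motifs searched on both strands, the GC box GGGCGG was the 1 motif present in all 7 windows, and 44.6% of all windows hold it. Apart from CSNK2A1, these windows have more GC than 77.3% to 93.8% of all windows. The share of windows of like GC content that hold each motif was not counted. The CCAAT box, CCAAT, was in the windows of MAVS and PANK2 (2 of 7, against 35.7% of all windows), and the ETS core CCGGAAG in those of TRIB3, RBCK1 and CSNK2A1 (3 of 7, against 10.7%). The NRF1 site, GCGCA and GCGC with 1 base between, was in the windows of NRSN2 and RNF24 (2 of 7, against 6.28%). An interferon response element, a repeat of GAAA with 2 bases between, was found in RBCK1 (1 of 7, against 3.65%). The TATA box TATAAA (11.95% of all windows), the cyclic AMP response element core TGACGTCA (1.98%) and the composite element TGATGNAA (3.67%) were in none of the 7, and none of the 23 matches overlapped another. A match describes letters and not binding.

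The windows shown are the least GC-rich of the 7 (CSNK2A1), the only one with the interferon response element (RBCK1) and, from the other run, that of MAVS, with 3 GC boxes. Capitals mark GC boxes on either strand in CSNK2A1 (chr20:543741-544040, minus strand) and MAVS (chr20:3846584-3846883, plus strand), and the interferon response element, read on the opposite strand, in RBCK1 (chr20:408049-408348, plus strand).
CSNK2A1: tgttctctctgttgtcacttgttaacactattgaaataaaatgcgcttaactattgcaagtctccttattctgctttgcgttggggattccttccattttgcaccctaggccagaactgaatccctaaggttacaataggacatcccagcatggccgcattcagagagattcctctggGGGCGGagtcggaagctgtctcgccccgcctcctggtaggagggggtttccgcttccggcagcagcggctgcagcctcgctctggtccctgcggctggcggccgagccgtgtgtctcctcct
RBCK1: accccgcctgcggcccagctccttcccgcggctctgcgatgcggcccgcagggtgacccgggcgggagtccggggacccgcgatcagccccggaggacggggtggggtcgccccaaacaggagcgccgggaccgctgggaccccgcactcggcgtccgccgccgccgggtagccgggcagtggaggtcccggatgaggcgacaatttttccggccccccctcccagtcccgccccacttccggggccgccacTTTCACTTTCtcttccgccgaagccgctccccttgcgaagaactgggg
MAVS: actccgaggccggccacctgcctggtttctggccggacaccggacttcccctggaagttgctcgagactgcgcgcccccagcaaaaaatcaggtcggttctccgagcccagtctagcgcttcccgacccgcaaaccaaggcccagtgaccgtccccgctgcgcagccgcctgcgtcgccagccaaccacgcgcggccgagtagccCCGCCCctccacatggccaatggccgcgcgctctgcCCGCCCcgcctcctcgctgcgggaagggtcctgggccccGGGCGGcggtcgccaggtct

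PANK2 also spans a microRNA gene, MIR103A2, on its own strand. Its mature product hsa-miR-103a-3p (chr20:3917541-3917563) has the same sequence as that of MIR103A1 within the relative PANK3, and shares its seed, bases 2 to 8 in capitals, with hsa-miR-107 (chr10:89592756-89592778) within PANK1. Levels of these microRNAs were not analysed here. The sequences are shown because PANK2 and PANK3, both measured, are the hosts of an identical mature sequence.
hsa-miR-103a-3p: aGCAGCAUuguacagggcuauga
hsa-miR-107: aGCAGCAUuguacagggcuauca

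All 8 genes had less transcript in U87MG, by 2.29-fold (RNF24) to 4.33-fold (NRSN2) on the brightest probe set of each gene, the one with the highest mean over the 6 arrays. Each array measured RNA of many cells, so fewer expressing cells and less transcript per cell cannot be told apart. A gene was called when limma gave an adjusted p under 0.05 and at least a 2-fold difference. By the choice of the genes, 8 of 8 were called lower, in a comparison that called 7.01% of all genes lower. Every U87MG array was below every T98G array for 8 of 8 genes, where 27.6% of all genes showed that order. Their median difference was -1.46, against -0.01 over all genes. The 8 differences ranked from 255th (NRSN2) to 633rd (RNF24) from the lowest of the 11963.

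**Figure D1:**
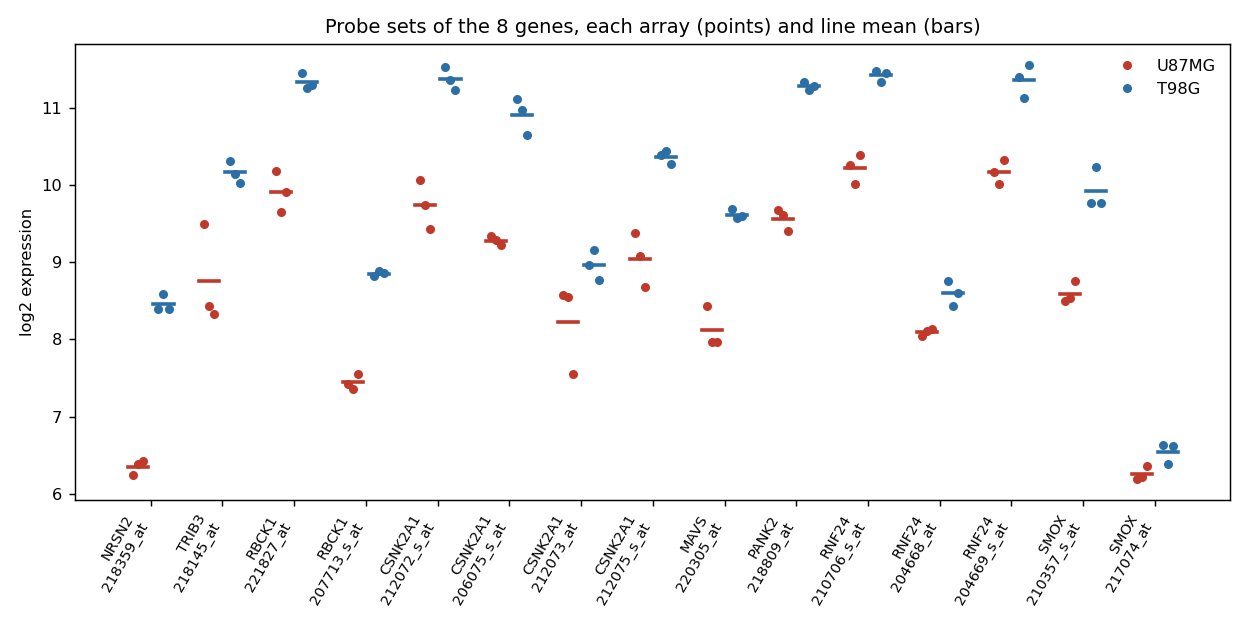
Log2 expression (vertical axis) of the 15 probe sets of the 8 genes (horizontal axis), with U87MG arrays as red points, T98G arrays as blue points and line means as bars. U87MG lies below T98G in all 15, with the narrowest gap, 0.015, at the second probe set of SMOX.

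In the distal run, NRSN2 held the largest difference of the 8. Its single probe set read 6.24, 6.38 and 6.42 in U87MG, against 8.40, 8.59 and 8.40 in T98G. The lines were 1.98 log2 units apart at their closest arrays, and the difference was -2.11 (SE 0.08, from the spread of the 3 arrays of each line), or 4.33-fold.

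TRIB3, which ATF4 and CHOP induce and which binds the kinase AKT, was the most variable of the 8 in U87MG. It read 9.50, 8.43 and 8.33 in U87MG, against 10.31, 10.14 and 10.03 in T98G. U87MG replicate 1 stood well above the other U87MG arrays and still lay 0.53 below the lowest T98G array. The means were 8.75 ± 0.65 in U87MG and 10.16 ± 0.14 in T98G (SD, n = 3 each), a difference of -1.41 (SE 0.38) that became -1.78 without U87MG replicate 1.

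RBCK1 had the same difference on both of its probe sets. The brighter read 10.18, 9.65 and 9.91 in U87MG, against 11.44, 11.26 and 11.29 in T98G, a difference of -1.42 (SE 0.16), or 2.67-fold. The other read 7.42, 7.36 and 7.55 in U87MG, against 8.82, 8.89 and 8.85 in T98G, a difference of -1.41 (SE 0.06). The lines did not overlap on either probe set.

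CSNK2A1 was lower on 4 of 4 probe sets, but not by the same amount. The brightest read 10.06, 9.74 and 9.43 in U87MG, against 11.53, 11.36 and 11.23 in T98G, a 3.10-fold lower level (log2 -1.63, SE 0.20). A second read 9.33, 9.28 and 9.22 in U87MG, against 11.11, 10.96 and 10.65 in T98G, and gave the same -1.63 (SE 0.14). Both sets of U87MG arrays lay more than a log2 unit below the lowest T98G array. Another read 9.38, 9.08 and 8.67 in U87MG, against 10.39, 10.43 and 10.27 in T98G, with a difference of -1.32 (SE 0.21). The remaining one, the dimmest of the 4, read 8.57, 8.54 and 7.55 in U87MG, against 8.97, 9.16 and 8.77 in T98G, a difference of -0.74 (SE 0.35) that was not called. On that probe set U87MG replicate 3 lay far below the other U87MG arrays, the higher of which came within 0.201 of the lowest T98G array. The suffix of the other 3 probe sets marks sequences that can match several transcripts, and CSNK2A1 has a near-identical intronless relative, CSNK2A3.

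In the proximal run, MAVS and PANK2 each had 1 probe set and a wide gap between the lines. MAVS read 8.43, 7.96 and 7.97 in U87MG, against 9.68, 9.57 and 9.59 in T98G, a difference of -1.50 (SE 0.16), or 2.82-fold. PANK2 read 9.68, 9.61 and 9.40 in U87MG, against 11.34, 11.23 and 11.28 in T98G, a difference of -1.72 (SE 0.09), or 3.29-fold. The closest arrays of the lines were 1.15 apart for MAVS and 1.55 apart for PANK2.

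RNF24 and SMOX were lower on every probe set, with dimmer probe sets that fell short of 2-fold. The brightest of the 3 RNF24 probe sets read 10.26, 10.01 and 10.39 in U87MG, against 11.47, 11.33 and 11.45 in T98G, a difference of -1.20 (SE 0.12). The next read 10.17, 10.01 and 10.32 in U87MG, against 11.39, 11.13 and 11.56 in T98G, a difference of -1.19 (SE 0.15). These 2 probe sets thus differed by nearly the same amount. The dimmest read 8.05, 8.11 and 8.13 in U87MG, against 8.76, 8.43 and 8.59 in T98G, a difference of -0.50 (SE 0.10). The lines did not overlap on any RNF24 or SMOX probe set. The brighter SMOX probe set read 8.49, 8.53 and 8.75 in U87MG, against 9.76, 10.23 and 9.77 in T98G, a 2.51-fold lower level (log2 -1.33, SE 0.17). Its other probe set read 6.19, 6.22 and 6.37 in U87MG, against 6.63, 6.38 and 6.62 in T98G, a difference of -0.28 whose lines were separated by only 0.015. Over all member probe sets, 15 of 15 had every U87MG array below every T98G array, where 26.4% of all probe sets did, and 12 of 15 were called lower, where 6.58% were. The 3 that were not called were the dimmer ones of CSNK2A1, RNF24 and SMOX named above. Without multiply matching probe sets these 3 probe sets alone stand for their genes, and 5 of 8 genes were called.

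The 8 genes lay at differing distances from their own average profile over the arrays. Its low level in U87MG follows from the choice of the genes, and each of them is part of the average. Centred on each gene's own mean, they averaged -0.57, -0.89 and -0.85 in U87MG replicates 1, 2 and 3, against 0.82, 0.79 and 0.70 in T98G. Of the 8, MAVS lay closest to that average profile (root-mean-square distance 0.067 over the 6 arrays) and NRSN2 farthest (0.332), followed by TRIB3 (0.288). The 5 other genes nearest to it were BDH1, NQO1, CREBBP, ELL2 and FADS2, at distances of 0.046 to 0.097, and none of the 5 is on chromosome 20. A profile over 6 arrays of 2 lines mostly carries the difference between the lines.

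Next to the runs, the values on either side of the 2-fold limit varied. RNF24 at -1.20 was the member closest to the limit, and the measured gene just beyond each end of a run was not called, since a run ended there. No measured gene lay between members of a run. Beside the distal run, SOX12, a transcription factor gene, had -0.84 (7.10 ± 0.10 in U87MG and 7.94 ± 0.09 in T98G, SD, n = 3 each). On the other side, TCF15 had 0.17 and ANGPT4 -0.19, both with lines that overlapped, and PSMF1, a proteasome inhibitor gene, had -1.10. DEFB126, a defensin gene at the tip of the arm, read 4.61 in both lines.

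The flanks of the proximal run held further lower genes. AP5S1, an adaptor subunit gene next to MAVS, had -0.46. The neighbours beyond it, the phosphatase gene CDC25B and the centromere protein gene CENPB, had -1.34 and -1.41 and were called. CDC25B averaged 11.05 ± 0.26 in U87MG and 12.39 ± 0.25 in T98G (SD, n = 3 each). Past SMOX, the adrenergic receptor gene ADRA1D had -0.86, the prion protein gene PRNP -0.80, with -1.21 on its other probe set, and PRND -0.10. PSMF1, CDC25B and CENPB were thus called and the other neighbours were not.

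Along the whole arm, lower levels in U87MG were common outside the runs as well. Of 113 measured genes of 20p, 34 were called lower (30.1%) and 1 higher (0.885%), in a comparison that called 7.01% of all genes lower and 6.56% higher. Without the 8 genes, 26 of 105 were called lower (24.8%), with a median difference of -0.27. Every U87MG array lay below every T98G array for 65 of the 113, and above for 9, where 27.6% and 24.5% of all genes showed these orders. Without multiply matching probe sets, 22 of 82 genes of the arm were called lower. The genes called higher numbered 3 without U87MG replicate 3, 2 without T98G replicate 1 and 2 without T98G replicate 2.

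The pattern was widest among brighter genes, those with a mean over all 6 arrays above 8.18, the median of gene means, a limit set after the data were seen. That mean takes in both lines, so being brighter is not independent of the difference described. Some genes, MAVS among them (8.12 in U87MG and 9.62 in T98G), passed through their T98G arrays alone. Of 50 brighter genes on 20p, 48 had every U87MG array below every T98G array, where 35.1% of brighter genes did, and the other 2 had the reverse order, which 30.8% of brighter genes showed. That order sets no minimum gap, and the lines of PYGB were only 0.0009 apart (limma adjusted p = 0.143). At an adjusted p under 0.05 and no minimum fold, 42 of the 50 were lower and 2 higher, where 1683 and 1543 of 5981 brighter genes were. Called lower were 26 of the 50, where 7.44% of brighter genes were, and called higher was 1, where 6.92% were. Their median difference was -1.03 (quartiles -1.34 and -0.48), and it was -0.98 for the 43 that are not among the 8 genes. The 63 dimmer genes of the arm, which include NRSN2, had a median of -0.06, with 8 called lower and 0 higher by limma, where 6.59% and 6.20% of all dimmer genes were called lower and higher. With no minimum fold, 15 of the 63 were lower and 6 higher at an adjusted p under 0.05, where 15.2% and 13.5% of all dimmer genes were.

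**Figure D2:**
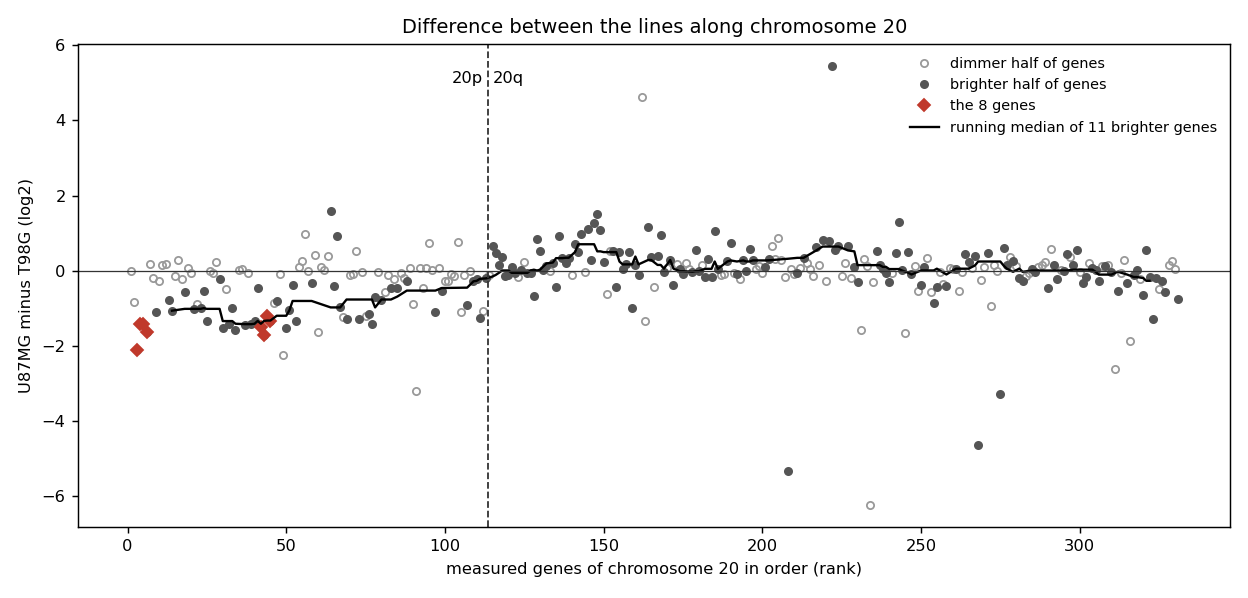
Difference between U87MG and T98G (log2, vertical axis) for each measured gene of chromosome 20 in gene order (horizontal axis), with the 8 genes as red diamonds, brighter genes filled and dimmer genes open. The line, a running median of 11 brighter genes, starts at NSFL1C, proximal to the distal run, and its 40 windows made of 20p genes alone lie between -1.42 at ADISSP and -0.46 at CST3. The next 5 windows also hold 20q genes, and on 20q, right of the dashed line, it lies on both sides of 0.

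Other genes of the arm reached or passed the differences of the 8. NKX2-2, a transcription factor gene of oligodendrocyte precursors, had the largest, at -3.20 (4.34 ± 0.14 in U87MG and 7.53 ± 0.26 in T98G, SD, n = 3 each). RASSF2, a Ras association gene, had -2.25 and PLCB4, a phospholipase C gene, -1.64. ATRN, which encodes attractin, had -1.57, although -0.29 on its other probe set, and SLC23A2, an ascorbate transporter gene, -1.53. In the other direction SNAP25, a synaptic vesicle fusion gene, was the 1 called gene, at 1.60 (9.61 ± 0.18 in U87MG and 8.01 ± 0.26 in T98G). JAG1, a Notch ligand gene picked out after its values were seen, was the other brighter gene with the reverse order, at 0.91 on its brightest probe set and -0.06 to 1.11 over 4 probe sets. The calls rest on the brightest probe set of each gene, and other probe sets could differ more. PLCB1 had 0.41 on its brightest and up to 3.47 over 3 probe sets, and THBD 0.75 and 1.85 on 2. Both were dimmer genes, also picked out after their values were seen.

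The other arm of the chromosome gave different values. On 20q, 10 of 218 genes were called lower (4.59%) and 9 higher (4.13%), with a median of 0.06, and brighter genes had a median of 0.11. Among 41 arms with at least 20 measured genes, 20p had the lowest median and the largest share called lower, over all genes and over brighter genes. The next arms were 11q by share (13.3% of 474 genes) and 12p by the median of brighter genes (-0.41). Runs of at least 4 neighbouring genes called lower numbered 3 over all chromosomes, the 2 on 20p and 1 on 19q, and runs called higher numbered 5. Shorter runs of 3 lower genes on 20p were RASSF2, SLC23A2 and TMEM230, and BFSP1, DSTN and RRBP1. No test of the arm was made, because the runs were picked from the same comparison.

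**Figure D3:**
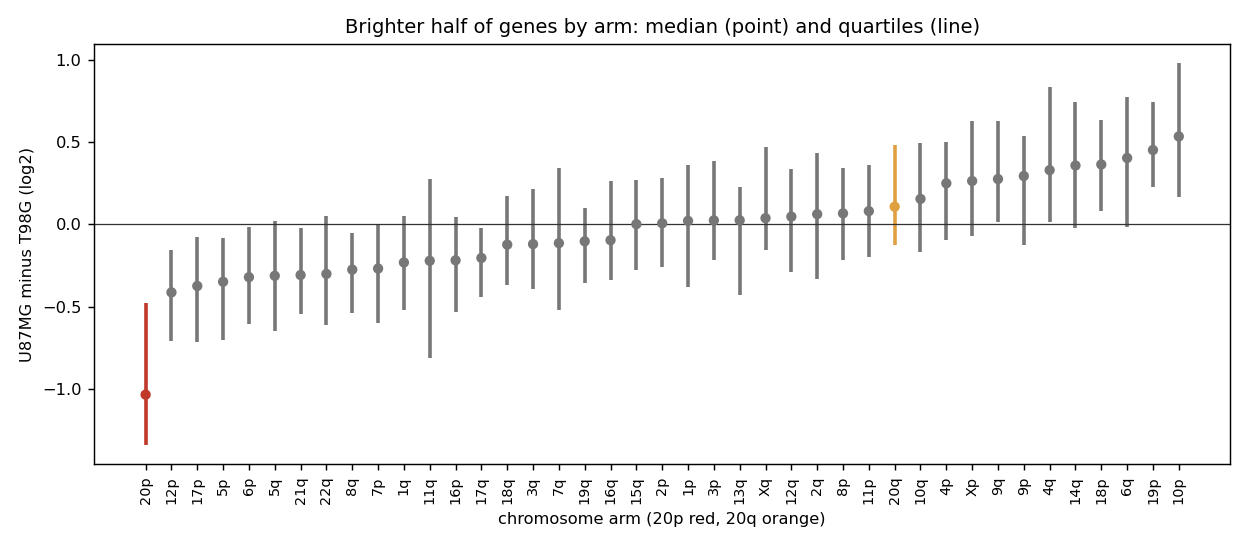
Median (point) and quartiles (line) of the difference between U87MG and T98G (log2, vertical axis) for brighter genes of each chromosome arm (horizontal axis), ordered by median. The arm 20p, in red, has a median of -1.03, the next, 12p, -0.41, and 20q, in orange, 0.11.

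The lists of pathway partners had medians from -0.31 (CK2, 2 genes measured) to 0.28 (linear ubiquitin, 5 genes measured), beside -0.01 for all genes. The median of -1.46 of the 8 genes follows from their choice, so the lists are not compared with it. Over 6 lists, 8 of 64 measured partners were called, where 13.6% of all genes were called in either direction. A further 27.7% of all genes passed the adjusted p but fell short of 2-fold, the share to set beside the further genes counted for each list. For RBCK1, 5 of 8 genes of linear ubiquitin signalling were measured, with 1 called higher by limma, 1 more at an adjusted p under 0.05 but short of 2-fold, and a median of 0.28. The gene called higher was TNFAIP3, which limits NF-kB signalling, at 1.37 (SE 0.16, limma adjusted p = 0.000113). SHARPIN, the other subunit measured of the ligase, had -0.19 (95% interval -0.42 to 0.05).

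Neither measured partner of CSNK2A1 was called by limma, 1 of the 2 being at an unadjusted p under 0.05. CSNK2B, the regulatory subunit of CK2, had -0.80 (11.96 ± 0.12 in U87MG and 12.76 ± 0.04 in T98G, SD, n = 3 each, limma adjusted p = 0.000175), short of 2-fold. CSNK2A2, the alternative catalytic subunit, had 0.19 (-0.08 to 0.46), with lines that overlapped.

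For MAVS, 16 of 18 genes of RIG-I-like receptor signalling were measured, with 2 called lower by limma, 6 more that passed the adjusted p but not the fold, and a median of 0.02. IFIH1, which encodes the sensor MDA5, read 5.84, 4.97 and 4.99 in U87MG, against 8.33, 7.29 and 8.10 in T98G, a difference of -2.64 (SE 0.29, limma adjusted p = 6.9e-05), and had -0.65 on its other probe set. IRF7, a transcription factor of the interferon response, had -1.61 (SE 0.14, adjusted p = 1.24e-05). The sensor gene RIGI had 0.78, and the kinase gene TBK1 0.03 (-0.23 to 0.28).

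For PANK2, 7 of 8 genes of coenzyme A synthesis were measured, with 1 called lower by limma, 2 more short of 2-fold and a median of 0.03. PPCS, the enzyme after pantothenate kinase, had a larger difference than PANK2, with 7.19, 6.56 and 6.31 in U87MG, against 9.33, 9.28 and 9.51 in T98G (log2 -2.68, SE 0.20, limma adjusted p = 4.46e-06). The paralogs PANK3 and PANK4 had -0.52 and 0.59 and were short of 2-fold. For SMOX, 12 of 14 polyamine genes were measured, with 1 called lower by limma, 3 more short of 2-fold and a median of 0.20. MTAP, which recycles the by-product of polyamine synthesis, was the lower one at -3.00 (SE 0.17, adjusted p = 5.36e-07), with 5 probe sets from -4.41 to -0.23. PAOX, the related polyamine oxidase, had -0.24 (-0.58 to 0.09).

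For TRIB3, 22 of 26 listed genes were measured, with a median of -0.13. Limma called 1 higher and 2 lower, and 10 more were short of 2-fold. Beside genes of the ATF4 and CHOP response, the measured ones include TRIB1, TRIB2, AKT1, AKT2 and the kinase genes EIF2AK1, EIF2AK2 and EIF2AK3. The amino acid transporter genes SLC7A5 and SLC7A11 were lower at -1.97 and -1.86 (limma adjusted p = 0.00014 and 0.000672). SLC7A5 read 11.41, 10.86 and 10.30 in U87MG, against 12.72, 13.09 and 12.67 in T98G. SLC7A11 read 11.68, 11.17 and 10.25 in U87MG, against 12.80, 12.82 and 13.04 in T98G. The U87MG values of both were widely spread, with replicate 1 the highest as for TRIB3, and the lines did not overlap. Among other genes of this list, picked out after their values were seen, the stress gene DDIT4 read 10.93, 8.80 and 8.96 in U87MG, against 11.08, 10.23 and 11.02 in T98G, and overlapped. Replicate 1 was the highest U87MG array for 16 of the 22 genes and for 4187 of all 11963 genes, counts made after the values were seen. VLDLR, a lipoprotein receptor gene, was higher at 3.98 (SE 0.18, adjusted p = 1.51e-07). DDIT3, which encodes CHOP, had 0.73 and ATF4 -0.58, opposite in sign. Among the paralogs, TRIB1 and TRIB2 had -0.76 and -0.67, and RNF122, a relative of RNF24, had -0.05 (-0.35 to 0.24). In all, 7 of 10 paralogs were measured and limma called 0 of them. TRIB1, TRIB2, PANK3 and PANK4, 4 of the 7, had a p under 0.05 with and without adjustment but fell short of 2-fold, as did 27.7% of all genes at the adjusted p.

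**Figure D4:**
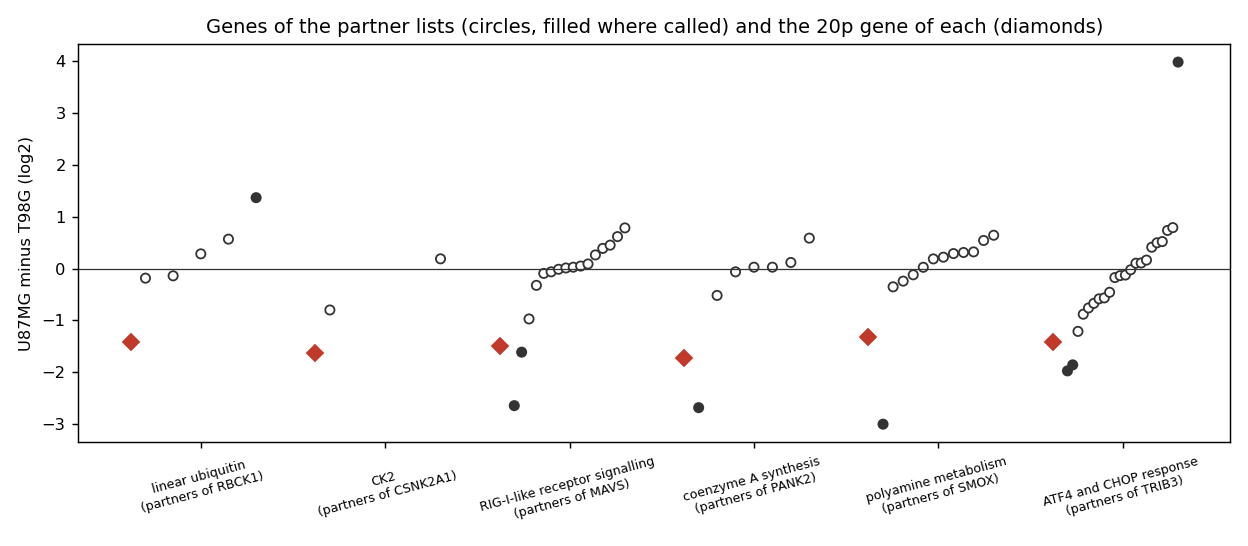
Difference between U87MG and T98G (log2, vertical axis) of the measured genes of 6 partner lists (circles, filled where called), beside the 20p gene each list belongs to (red diamonds). The diamonds lie low by the choice of the 20p genes. Most circles lie around 0, and the filled ones run from -3.00 (MTAP) to 3.98 (VLDLR).

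Over probe sets, r was 0.990 to 0.997 between arrays of one line and 0.934 to 0.939 between a U87MG and a T98G array. Of 12 glial and glioblastoma markers, 6 to 7 read above the median of gene means in U87MG arrays and 4 in T98G arrays, a limit that does not mark detection. Between the lines, limma called 3 of the 12 higher in U87MG, NES (2.55), ALDOC (1.64) and SLC1A3 (1.04). It called 1 lower, SOX9 (-1.99), where 6.56% of all genes were called higher and 7.01% lower. VIM, CD44 and CHI3L1 read above the limit in every array, and GFAP, S100B, OLIG2, SOX2 and AQP4 stayed below it in every array. Of 14 markers of other cell types, 12 were measured and 0 read above it in any array, and their summed log2 values were 68.1 to 68.6 in U87MG and 66.2 to 67.5 in T98G. Limma called 0 of the 12, but 2 passed the adjusted p just short of 2-fold, where 27.7% of all genes passed short of 2-fold. They were SYT1 (0.9998, limma adjusted p = 0.000515) and EPCAM (0.89, limma adjusted p = 0.00161), both higher in U87MG.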

How the data were processed

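Biotin-labelled RNA of both lines was hybridised to Affymetrix arrays (labels' protocols). The deposited values are log2 expression of each probe set, from 2.90 to 14.9. The submitters' processing notes name RMA, which equalises array distributions and can hide a difference in total RNA, and limma. No versions are stated there.

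Gene symbols came from the platform table, updated through RefSeq's gene table of GRCh38.p14 (19052 of 19064 matched), which also gave gene order. Arms were divided at approximate centromere positions. The lines were compared by limma 3.58.1 in R 4.3.3 (lmFit, eBayes, two-sided, 4 residual degrees of freedom, Benjamini-Hochberg adjustment over 11963 genes, or over 19064 probe sets where those are counted). The brightest probe set stands for a gene. SEs of the 8 genes come from their own arrays, other SEs and all 95% intervals from limma. On simulated data, 47 of 50 genes lowered and 49 of 50 raised by log2 1.4 were called. The simulated noise was independent and normal, with each gene's own residual SD. Smaller shifts, such as those of RNF24 (-1.20) and SMOX (-1.33), were not simulated. Precision is limited by 3 arrays per line, and the median residual SD was 0.146.

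The 8 genes and the lists were chosen with earlier results of these data known. The text names the 8 genes, up to 3 measured genes beyond each end of a run, up to 5 other called genes of 20p in each direction, up to 3 called genes in each direction of each partner list (or the 2 with the smallest p), the measured paralogs, and the 5 genes nearest in profile. Any other gene was chosen after its values were seen. Alternatives were other thresholds, removal of dim or multiply matching probe sets, other summaries of a gene's probe sets, repeated normalization, another variance model, the replicate number as a block and each array left out.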

Additional observations from a re-analysis of the deposited data

How the results depend on the processing

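The count of the 8 genes called lower was 8 under the main setting and without any 1 array (8 to 8), 6 when probe sets were averaged per gene, and 5 both with the dimmest probe set of a gene and without multiply matching probe sets. In the last setting the other 3 genes are represented by the dimmer probe sets only. Of the alternative values of the 8 differences, 98 moved by less than the SD between arrays, 13 moved further, and 0 changed sign. The 13 concern CSNK2A1, RNF24 and SMOX. Some of the 98 could not move, so their number does not measure stability. A replicate block leaves the difference unchanged when both lines have the same replicates. NRSN2, TRIB3, MAVS and PANK2 have 1 probe set each, so settings that choose or average probe sets return the main value. With no minimum fold, 4942 of all genes were called instead of 1624, as were 57 genes of 20p lower, 8 higher and 31 partner genes. Of all 11963 genes, 2591 were then called lower and 2351 higher. Without any 1 array, all genes called numbered 1609 to 1653, genes of 20p called lower 33 to 35, called higher 1 to 3, and partner genes 8 to 10. Without multiply matching probe sets, 22 genes of 20p were called lower, among 82 tested in place of 113, and 4 partner genes were called. Genes of 20p called higher numbered 2 without dim probe sets, 3 with probe sets averaged per gene, 2 with the dimmest probe set and 2 with quantile normalization. With the replicate number as a block, 1626 genes were called, 34 of them lower on 20p, and all 8 members were called. Same-numbered arrays of the lines had correlated deviations of 0.154, 0.068 and 0.045, and the other pairs had -0.121 to 0.056. Each T98G replicate correlated best with the U87MG replicate of its own number. U87MG replicate 3, however, correlated more with T98G replicate 2 (0.056) than with T98G replicate 3. These weak values do not settle whether the numbers pair the arrays, and the main comparison did not pair them. A second centring and quantile normalization moved the median difference of all genes to 0.011 in each case. Probe sets near the bottom of the scale limit what their differences can show.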

Other observations

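On 20q, brighter genes leaned the other way in places. The running median of 11 brighter genes peaked at 0.71 around EDEM2, an endoplasmic reticulum degradation gene, and the neighbours UQCC1, GDF5 and CEP250 formed a run of 3 genes called higher in U87MG. CEP250 had 1.07 on its brightest probe set but 0.03 on its other. Of 41 arms, 10p had the highest median of brighter genes, at 0.53 over 56 genes, with 12 of them called higher (21.4%) and 6 lower (10.7%), and a run of 4 genes called higher made up of NRP1, PARD3, CUL2 and CREM. The choice of these genes and arms followed from their values.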
